A study of Mus musculus with 8 samples.

Results

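The genes described here are 7 Skint genes (Skint1, Skint3, Skint4, Skint5, Skint6, Skint9 and Skint10) and 3 segments of the gamma-delta T cell receptor (Trdv4, Tcrg-V5 and Tcrg-C1), 10 of 41388 gene identifiers in the count tables. They were listed as a group with results of the same comparison already known, so their differences between treated and control skin are given as a description, without a test. Bulk RNA was sequenced from whole ears of 8 adult C57Bl/6 mice, all with the genotype WT. A group of 4 mice received the ethanol vehicle, and a group of 4 received MC903 (calcipotriol, a vitamin D analog) on the skin at 1 nmol daily for 12 days. The comparison asks how this treatment, used to produce itchy inflamed skin in mice, alters the transcripts of the ear.

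Skint genes encode membrane proteins of the butyrophilin-like family that are made mainly by keratinocytes and by thymic epithelium. Skint1 is required in the thymus for the maturation of dendritic epidermal T cells, and Skint3 and Skint9 have been linked to the response of these cells to wounds. Dendritic epidermal T cells are resident gamma-delta T cells of mouse epidermis, and their receptor joins a gamma chain built from the variable segment Tcrg-V5 and the constant segment Tcrg-C1 to a delta chain built from the variable segment Trdv4. Only Tcrg-V5 among the 3 is close to specific for these cells. Trdv4 also pairs with Tcrg-V6 in other gamma-delta T cells, and Tcrg-C1 is shared by several gamma chains.

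All 11 Skint genes of the tables lie in a single cluster on chromosome 4 of mm10, between positions 111919392 and 114245028, a span of 2326 kb. Their start regions fall into groups of related sequence. The 250 bases before the Skint5 and Skint6 start sites are shown because these neighbours have the most alike start regions of the family. Both are on the reverse strand in the RefSeq sequences of GRCm38.p6, at chr4:113999504-113999753 for Skint5 and chr4:113286974-113287223 for Skint6. The sequences read 5′ to 3′ in the direction of transcription, and capitals mark the 28 bases that differ in their alignment.
Skint5: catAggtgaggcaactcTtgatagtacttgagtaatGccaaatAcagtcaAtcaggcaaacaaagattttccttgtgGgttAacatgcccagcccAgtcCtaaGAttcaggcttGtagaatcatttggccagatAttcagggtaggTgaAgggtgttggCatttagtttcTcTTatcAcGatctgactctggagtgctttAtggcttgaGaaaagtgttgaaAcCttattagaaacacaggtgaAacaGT
Skint6: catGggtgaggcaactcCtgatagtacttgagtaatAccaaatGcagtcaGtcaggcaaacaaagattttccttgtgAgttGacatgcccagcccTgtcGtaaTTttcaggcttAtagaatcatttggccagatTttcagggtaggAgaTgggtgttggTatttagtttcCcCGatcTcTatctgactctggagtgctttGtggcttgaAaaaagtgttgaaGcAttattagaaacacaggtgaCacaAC
Over windows of 300 bases that include the first 50 transcribed bases, the pair was 89.7% identical, against a median of 45.2% over the 66 pairs of Skint start regions.

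A stretch of 14 letters, AGTACTTGAGTAAT, is present in the start regions of Skint1, Skint3, Skint5, Skint6 and the inner start of Skint4, and in no other of 32851 mouse start regions on either strand (0.0152% in all). It was found by comparing the Skint sequences with each other, so its presence in them is a description. The stretch is in capitals in 3 members, on the forward strand at chr4:112006019-112006076, chr4:112232117-112232180 and chr4:112081398-112081461.
Skint1: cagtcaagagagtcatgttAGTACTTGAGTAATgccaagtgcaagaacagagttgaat
Skint3: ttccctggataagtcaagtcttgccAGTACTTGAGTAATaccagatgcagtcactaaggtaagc
Skint4: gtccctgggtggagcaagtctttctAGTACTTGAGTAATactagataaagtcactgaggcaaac
A different stretch, TGACTTTCATAAA, is shared by Skint9, Skint10 and Skint11 and by no other start region (0.00913%), at chr4:112434147-112434209 and chr4:112774937-112774999 on the reverse strand and chr4:114163297-114163359 on the forward strand.
Skint9: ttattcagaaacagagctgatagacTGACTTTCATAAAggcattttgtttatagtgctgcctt
Skint10: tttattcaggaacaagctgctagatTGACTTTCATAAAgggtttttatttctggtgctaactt
Skint11: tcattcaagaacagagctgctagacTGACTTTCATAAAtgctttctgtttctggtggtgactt
The treatment acts through the vitamin D receptor, whose binding sites contain 6-letter units. On either strand, AGGTCA was in 0 of 12 Skint start regions (Skint4 has more than 1 start) and in 16.3% of all, and AGTTCA was in those of Skint1 and Skint8 and in 14.0% of all. The full vitamin D response element of direct repeats spaced by 3 bases was in 0 of 12, and in 0.0396% of all start regions. An element this rare would be absent from nearly any 12 start regions, so nothing is read from its absence. Sequence outside the start regions was not searched. The core TATAAA was in 8 of 12, against 13.6% of all.

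The 2 variable segments are shown because they identify the receptor of dendritic epidermal T cells. The last part of each coding sequence is given from GENCODE M21 on GRCm38, forward strand, at chr13:19192576-19192725 for Tcrg-V5 and chr14:54075366-54075515 for Trdv4. Capitals mark the conserved cysteine codon and the germline bases after it, where joining to a J segment takes place.
Tcrg-V5: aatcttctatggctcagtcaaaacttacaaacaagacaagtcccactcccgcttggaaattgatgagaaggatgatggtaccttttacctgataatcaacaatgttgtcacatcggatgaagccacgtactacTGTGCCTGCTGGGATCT
Trdv4: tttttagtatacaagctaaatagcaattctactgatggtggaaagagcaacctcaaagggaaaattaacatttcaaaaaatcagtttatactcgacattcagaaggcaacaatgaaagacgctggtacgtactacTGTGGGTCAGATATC
The tables count Tcrg-V5 over 293 bases, which leaves out its leader exon, and Trdv4 over 345 bases. Reads were 50 bases long. No 50-base word of the Tcrg-V5, Trdv4, Skint1, Skint9 or Skint10 transcripts occurs in a transcript of another gene, so their reads are not shared by exact match. Over its whole transcripts Tcrg-C1 shares 34.2% of its words with other genes, chiefly Tcrg-C3 and Tcrg-C2. The tables count it over only 518 bases. Of the 515 bases of its coding part, 66.8% lie inside a 50-base word shared with Tcrg-C2 or Tcrg-C3. Among the other Skint members the share was highest in Skint6 (5.09%) and Skint5 (3.97%), which have 175 words in common. How the authors counted reads that match several genes is not given in the sources used here.

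Library totals were 12310466 to 16837221 counts, and 22205 to 23092 genes were detected per library. In vehicle replicate 2 the salivary gene Bpifa2 took 24.5% of the counts, while the top gene of any other library took at most 2.93%. Levels below are CPM, the count scaled to a fixed library total, on TMM-adjusted library sizes, which allow for such a gene. Cyp24a1, which the vitamin D receptor induces and whose enzyme breaks vitamin D down, was at 16.5 to 20.7 CPM in the vehicle libraries and at 3390 to 4318 CPM in the MC903 libraries. The lowest level of the keratinocyte gene Krt5 in any library was 1207 CPM, and of the T cell genes Cd3e ran from 16.1 to 24.4 CPM. Of 16105 genes tested with edgeR's quasi-likelihood test, 41.5% passed an adjusted p of 0.05 (20.2% lower and 21.3% higher in MC903 skin). Because the samples are whole tissue, fewer cells of a type and less RNA per cell cannot be told apart.

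All 10 members passed the filter on low counts. Of these, 6 passed the threshold, all 6 lower in MC903 skin, against the 20.2% of all genes tested that were lower. The same 6 had all 4 MC903 libraries below all 4 vehicle libraries, as did 18.9% of the genes tested (19.8% had all 4 above). The median log2 fold change of the members was -0.85, and that of all genes tested was -0.03. Nothing is read from these counts, since the members were chosen from this comparison. The differences ran from a Skint5 level at 19.7% of vehicle to a Skint1 level at 118% of vehicle.

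**Figure D1:**
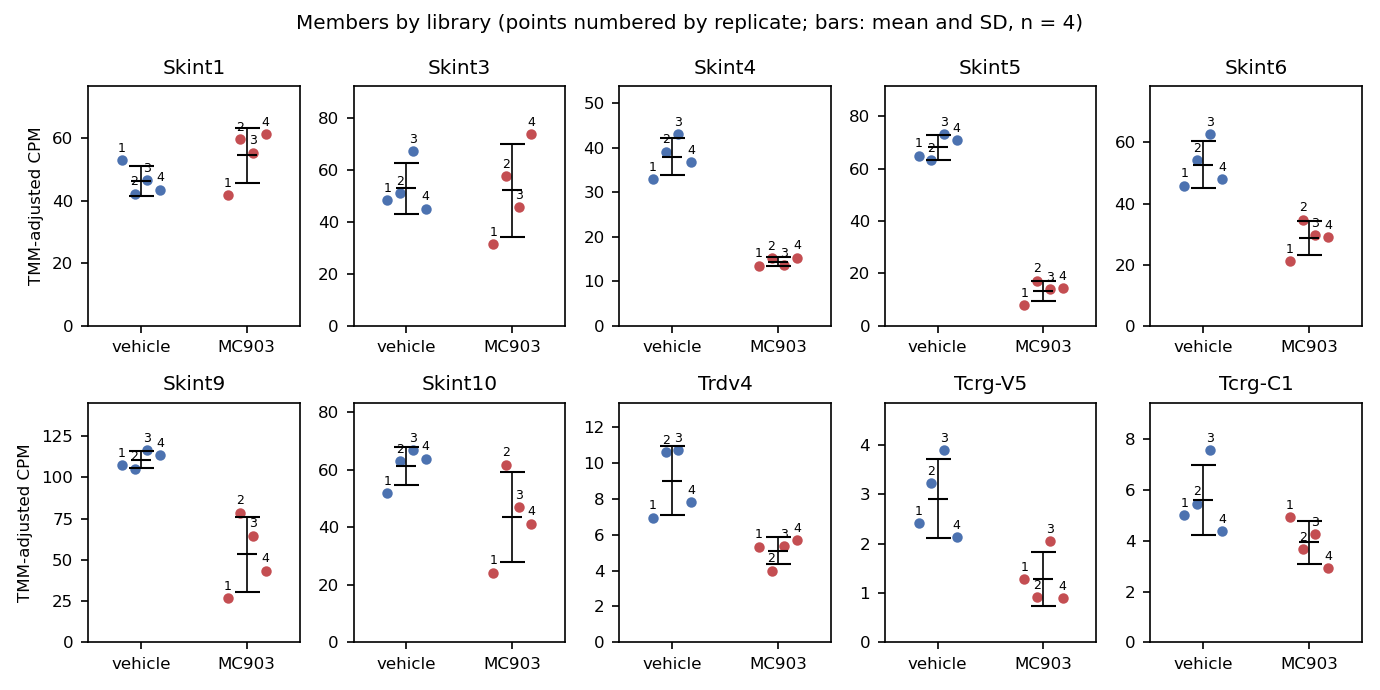
TMM-adjusted CPM (vertical axis, from 0) of the 7 Skint genes and 3 receptor segments in each library, with points numbered by replicate and bars for the mean and SD (n = 4 per group). Skint4, Skint5, Skint6, Skint9, Trdv4 and Tcrg-V5 have no overlap between groups, and MC903 replicate 1 is the lowest MC903 library for all 7 Skint genes.

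Skint5 showed the largest difference of the 10. Its level was 65.0, 63.1, 73.2 and 70.9 CPM in vehicle replicates 1 to 4 and 8.03, 17.2, 14.0 and 14.4 CPM in MC903 replicates 1 to 4. Every MC903 library was therefore far below every vehicle library, and the spread within each group was small beside the gap. The log2 fold change was -2.34 ± 0.20 (SE). Skint5 is, with Skint6, an unusually long gene of the cluster, annotated with 59 exon blocks over chromosome 4 positions 113477891 to 113999503.

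Skint4 lay at 33.0, 39.2, 43.1 and 36.8 CPM in the vehicle libraries and at 13.6, 15.2, 13.6 and 15.3 CPM in the MC903 libraries. The MC903 values were the most even of any Skint member, with an SD of 0.97 CPM around a mean of 14.4. Its log2 fold change was -1.40 ± 0.13 (SE), which put MC903 skin at 37.9% of vehicle.

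Skint9 was the most abundant member in vehicle skin, at 107, 105, 116 and 113 CPM. In MC903 skin it was at 26.8, 78.5, 64.5 and 43.4 CPM. The groups did not overlap, but the MC903 libraries were widely spread. Skint9 had a log2 fold change of -1.05 ± 0.26 (SE).

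Skint6 was at 45.8, 54.2, 62.7 and 47.9 CPM in vehicle skin and at 21.2, 34.7, 29.8 and 29.0 CPM in MC903 skin, a log2 fold change of -0.88 ± 0.16 (SE). Skint5 and Skint6 have related start regions and 175 shared 50-base words. The MC903 level was 54.4% of vehicle for Skint6 and 19.7% for Skint5.

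The remaining Skint members overlapped between groups. Skint10 was at 51.7, 62.9, 66.6 and 63.8 CPM in vehicle skin and at 24.2, 61.7, 47.0 and 41.2 CPM in MC903 skin. A single MC903 library, replicate 2, reached into the vehicle range, and the log2 fold change was -0.49 ± 0.23 (SE). Without that library it was -0.70, and the gene passed the threshold as lower. Skint3 was at 48.4, 50.9, 67.1 and 45.0 CPM in vehicle skin and at 31.4, 57.4, 45.6 and 73.7 CPM in MC903 skin, with both the lowest and the highest value in the MC903 group. Its log2 fold change was -0.02 ± 0.23 (SE), and the sign of this value turned when single libraries were left out.

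Skint1, the founding member of the family, was at 53.1, 42.3, 46.6 and 43.6 CPM in vehicle skin and at 41.9, 59.7, 55.5 and 61.4 CPM in MC903 skin. It was the only member with a higher mean in MC903 skin, at a log2 fold change of 0.23 ± 0.14 (SE). MC903 replicates 2 to 4 were all above the 4 vehicle libraries and replicate 1 was below them. Without MC903 replicate 1 its log2 fold change was 0.35, and the gene then passed the threshold as higher.

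MC903 replicate 1 was the lowest of the 4 MC903 libraries for 7 of 7 Skint members and for 9 of all 11 Skint genes, whereas it was the lowest for 33.7% of all genes tested. The same library stood apart in Krt10, a keratin of differentiating keratinocytes, at 967 CPM against 2175 to 2371 CPM in the other MC903 libraries. Across 10 genes of suprabasal keratinocytes it was the lowest MC903 library for 5. The summed level of those genes there was 14799 CPM, within the range of the other MC903 libraries (12061 to 15433 CPM). The largest part of that sum was Krtdap, which was highest in replicate 1, at 8759 CPM against 5008 to 7327 CPM in the others. The sum therefore says little about the other genes of that list. The part of these markers in the Skint values was not tested. Without this library the log2 fold changes of Skint4, Skint5, Skint6 and Skint9 were -1.37, -2.16, -0.75 and -0.83, and each passed the threshold. These genes were chosen from the same comparison, so this is a description only.

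The 4 Skint genes outside the list were left out with results known, and their values are also a description. Skint11 was at 28.3 to 31.9 CPM in vehicle skin and at 16.3, 49.3, 34.3 and 34.7 CPM in MC903 skin, so the MC903 libraries lay on both sides of the vehicle range. Without MC903 replicate 1 its log2 fold change went from 0.18 to 0.41 and passed the threshold as higher, and without MC903 replicate 2 it was -0.059. Skint7 was low throughout, at 1.999 to 4.30 CPM in vehicle and 1.05 to 1.75 CPM in MC903 skin, without overlap, with a log2 fold change of -1.16 ± 0.28 (SE). Skint8 averaged 3.89 CPM in the vehicle group and 2.83 CPM with MC903, and Skint2 averaged 3.53 and 4.82 CPM. Both overlapped between the groups. Skint7 and Skint8 have 272 words of 50 bases in common, so reads may move between them.

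**Figure D2:**
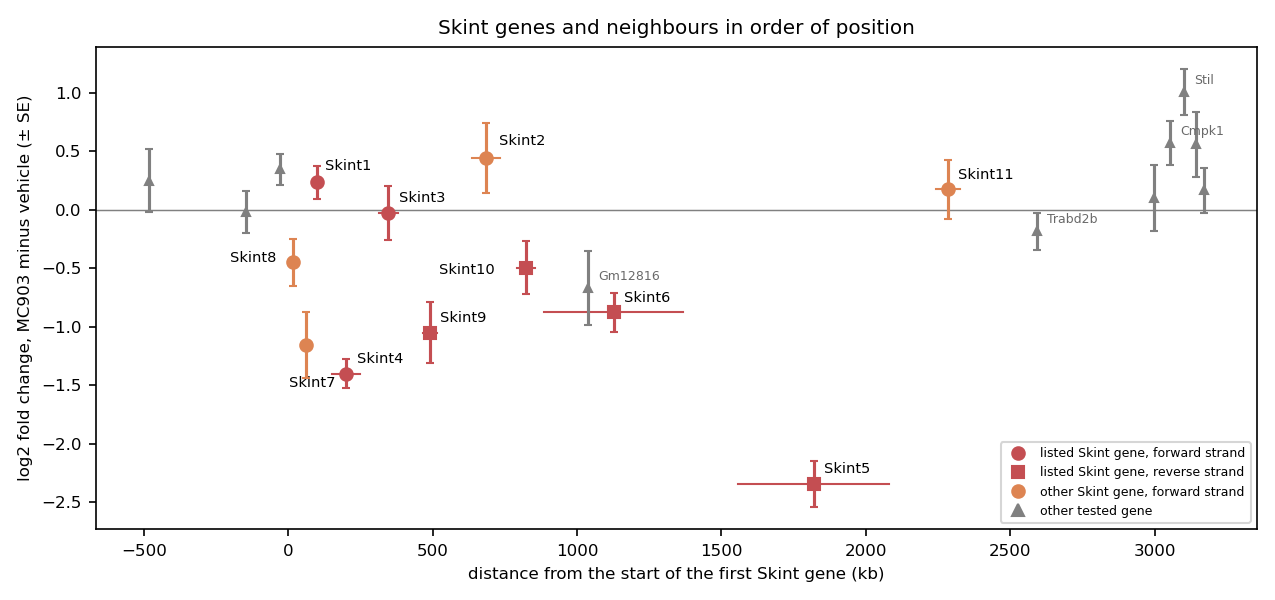
Log2 fold change of MC903 minus vehicle (vertical axis, ± SE) for the 11 Skint genes and 10 other tested genes within 1 Mb, by distance from the start of the first Skint gene in kb (horizontal axis). Horizontal lines span each Skint gene. Skint5 is the lowest at -2.34, while the other genes run from -0.67 to 1.01.

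The differences varied between neighbours in the cluster. Skint1 (0.23) lies between Skint7 (-1.16) and Skint4 (-1.40), and Skint3 (-0.02) lies between Skint4 and Skint9 (-1.05). The neighbours Skint10 (-0.49), Skint6 (-0.88) and Skint5 (-2.34) were all below 0, and Skint11 (0.18) follows them. The values are also given by shared start-region stretch, whose part in the differences was not tested. The 5 genes with AGTACTTGAGTAAT ran from -2.34 (Skint5) to 0.23 (Skint1), and the 3 genes with TGACTTTCATAAA ran from -1.05 (Skint9) to 0.18 (Skint11).

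Genes around the cluster provide a measure that the choice of members did not use. Of 45 other genes within 1 Mb of it, 10 could be tested, 2 rose and none fell, and the number that rose is near the 21.3% of all genes tested. Stil, a centriole duplication gene, rose from 5.14 ± 0.59 to 10.4 ± 2.34 CPM (SD, n = 4; log2 fold change 1.01 ± 0.20 SE; edgeR adjusted p = 0.00191). Cmpk1, a nucleotide kinase, rose from 102 ± 10.2 to 152 ± 41.9 CPM (log2 fold change 0.57 ± 0.19 SE; edgeR adjusted p = 0.0317), and its call was lost when vehicle replicate 1, 2 or 4 or MC903 replicate 2, 3 or 4 was left out. The median of these 10 genes was 0.21. Slc5a9, next to the Skint8 end, had a log2 fold change of 0.35 ± 0.13 (SE) and did not pass (edgeR adjusted p = 0.0538).

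Reads assigned to the wrong relative within the family do not alter a sum over it. Reads that were discarded, or assigned to genes outside it, are not covered by such a sum, and Skint11, for example, shares 67 words of 50 bases with Gm12813. The 11 Skint genes together made up 446 to 518 CPM in vehicle skin and 192, 384, 313 and 322 CPM in MC903 skin. No MC903 library reached the vehicle range, and the mean log2 level differed by -0.68. For the 7 members alone the sum averaged 430 ± 31.4 CPM in vehicle ears and 260 ± 66.4 CPM in MC903 ears (SD, n = 4).

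Composition within the family also differed, as the plot of shares in each library shows. Skint5 made up 14.6%, 13.8%, 14.1% and 15.5% of all Skint counts in the vehicle libraries and 4.18%, 4.49%, 4.47% and 4.49% in the MC903 libraries. The 95% Wilson interval of the lowest share was 3.50% to 4.98% and that of the highest was 14.7% to 16.3%, covering counting error only. The share was nearly equal in all 4 MC903 libraries, including replicate 1, in which the summed Skint level was lowest.

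**Figure D3:**
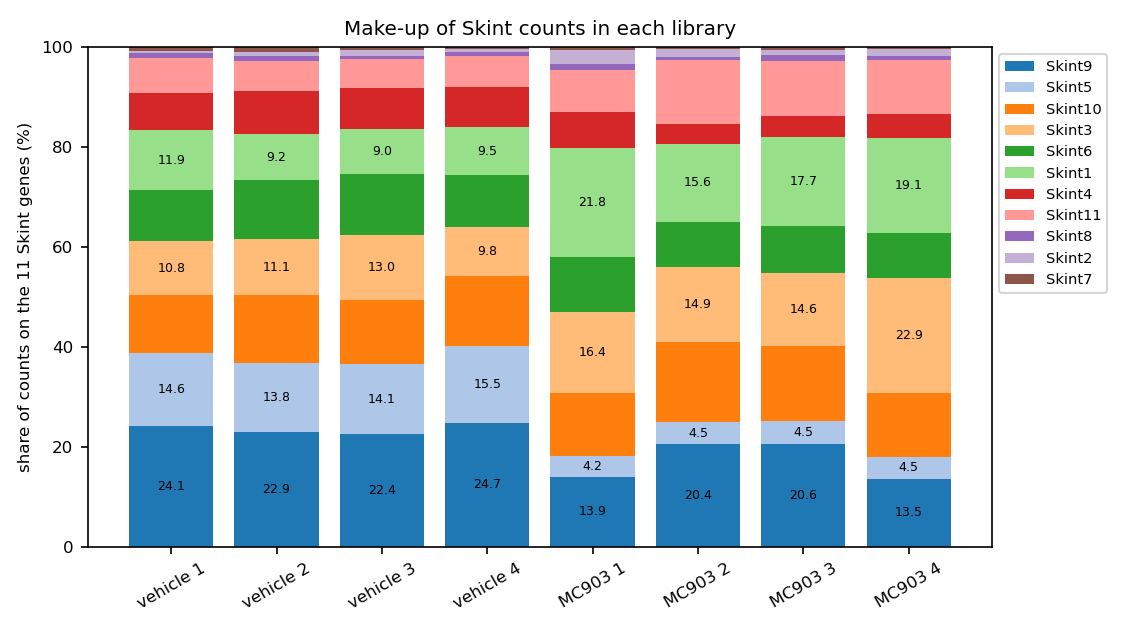
Share of the counts on all 11 Skint genes taken by each gene (vertical axis, percent, bars sum to 100) in each of the 8 libraries, with values printed for Skint9, Skint5, Skint3 and Skint1. The Skint5 share is 13.8% to 15.5% in vehicle and 4.18% to 4.49% in MC903 libraries, and the Skint1 share is 9.00% to 11.9% and 15.6% to 21.8%.

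Skint1 took 9.00% to 11.9% of Skint counts in vehicle and 15.6% to 21.8% in MC903 skin. Skint3 took 9.82% to 12.96% and 14.6% to 22.9%, and Skint11 took 5.78% to 7.15% and 8.49% to 12.8%. These 3 genes had no overlap between groups in their shares, although their CPM values overlapped. Skint9 went from a mean share of 23.5% ± 1.04 to 17.1% ± 3.94, and Skint4 from 8.08% ± 0.49 to 5.03% ± 1.39 (SD, n = 4). Shares of one total are linked, so a lower share of one gene raises those of the others. The Skint10 share was 13.02% ± 1.05 in vehicle and 14.1% ± 1.71 in MC903 skin, which overlapped.

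Levels of different genes are compared per kilobase of counted length. In vehicle skin Skint9 was highest at 80.6 ± 3.71 CPM per kb, followed by Trdv4 at 26.1 ± 5.56 (SD, n = 4). Skint10, Skint1, Skint5, Skint6 and Skint3 followed at 16.4, 15.4, 14.8, 13.8 and 13.8 CPM per kb, and each differed from its neighbour by less than the larger SD of the pair. Tcrg-C1, Tcrg-V5 and Skint4 were lowest, at 10.8, 9.94 and 8.71 CPM per kb, again within the larger SD of each neighbouring pair. In MC903 skin Skint9 remained highest at 38.9 ± 16.6 CPM per kb, Skint1 came next at 18.1 ± 2.94, and the lowest means were those of Skint4 (3.30 ± 0.22) and Skint5 (2.92 ± 0.84), which differed by less than the larger SD. Values per kb of the short receptor segments are sensitive to how reads that cross the V-J-C junctions were counted.

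The receptor segments had far fewer reads. Trdv4, the delta chain variable segment, was at 6.95, 10.6, 10.7 and 7.81 CPM in vehicle skin and at 5.33, 4.00, 5.37 and 5.68 CPM in MC903 skin. Every MC903 library was below every vehicle library, and the log2 fold change was -0.82 ± 0.19 (SE). Tcrg-V5, the gamma chain variable segment, was at 2.42, 3.23, 3.88 and 2.12 CPM in vehicle skin and at 1.28, 0.92, 2.05 and 0.89 CPM in MC903 skin. MC903 replicate 3 came close to vehicle replicate 4, without overlap, and the log2 fold change was -1.15 ± 0.31 (SE). These values rest on 185 summed counts in vehicle and 72 in MC903 libraries.

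Tcrg-C1, the constant segment joined to Tcrg-V5, was at 5.01, 5.46, 7.54 and 4.37 CPM in vehicle skin and at 4.93, 3.67, 4.24 and 2.92 CPM in MC903 skin. The groups overlapped through MC903 replicate 1, and the log2 fold change was -0.50 ± 0.23 (SE). The 3 segments together averaged 17.5 ± 3.85 CPM in vehicle ears and 10.3 ± 1.53 CPM in MC903 ears (SD, n = 4). MC903 replicate 1 was the lowest MC903 library for 0 of these 3 segments, and for 33.7% of all genes tested. With only 3 genes, no difference from the Skint genes is read from this count.

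**Figure D4:**
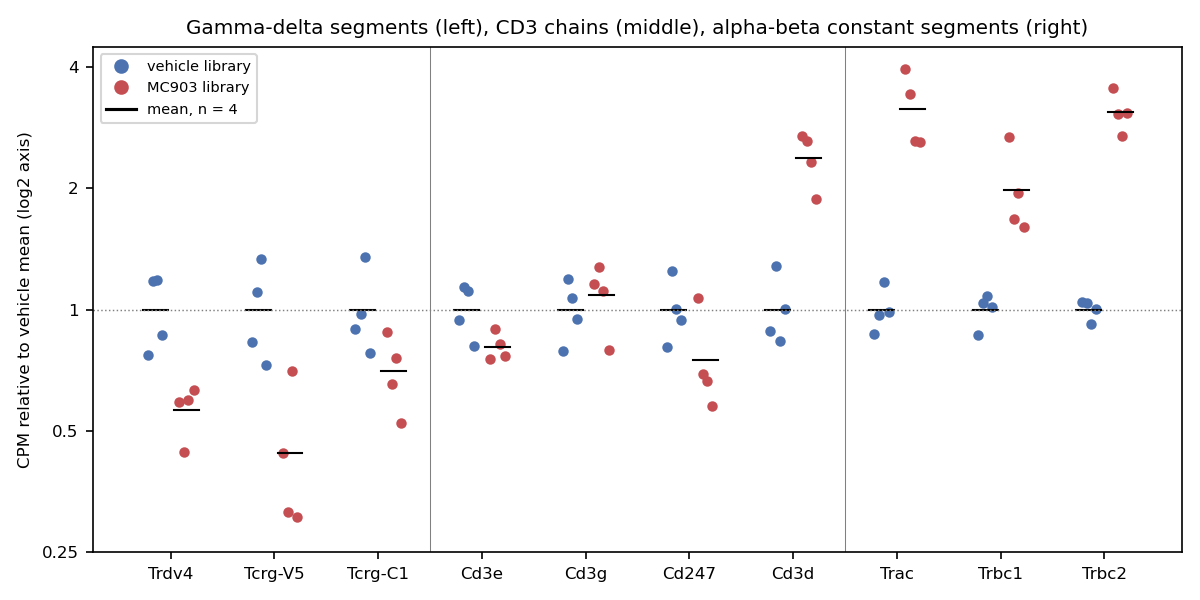
CPM of each gene relative to its vehicle mean (vertical axis, log2 scale) in the 4 vehicle and 4 MC903 libraries, with lines for the means, for gamma-delta segments, CD3 chains and alpha-beta constant segments. Trdv4 and Tcrg-V5 lie below the vehicle libraries in MC903 skin, while Trac and Trbc2 averaged 315% and 309% of vehicle.

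Other gamma-delta receptor genes were low. Of 15 on the list, 13 were matched in the tables and 3 could be tested, all 3 below 0 and none past the threshold. Tcrg-V2 had a log2 fold change of -0.61 ± 0.32, Tcrg-C2 of -0.65 ± 0.32 and Tcrg-C4 of -0.81 ± 0.39 (SE). Without vehicle replicate 4 Tcrg-C2 passed as lower (-0.87), and without MC903 replicate 3 Tcrg-C4 did (-1.36). Tcrg-V6, the partner of Trdv4 in other gamma-delta T cells, averaged 0.47 CPM in both groups. Tcrg-V4 averaged 0.48 CPM in vehicle ears and 0.36 CPM in MC903 ears. Tcrg-V1, Tcrg-V3, Tcrg-V7, Tcrg-C3, Trdv1 and Trdv2-2 averaged at most 0.191 CPM in either group, and Trdv2-1 had no count in any library. Trdv5 averaged 0.40 and 0.17 CPM, and it shares 40.6% of its 50-base words with Trdc, which it overlaps.

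Within the receptor families, Tcrg-V5 had the most counts of the gamma variable segments in every vehicle library and in MC903 replicates 1 and 3. In MC903 replicates 2 and 4 it had 11 counts and Tcrg-V2 had 12. It held 54.0% ± 7.97 of gamma variable counts in vehicle and 40.8% ± 8.68 in MC903 skin (SD, n = 4), with overlap between the groups. Those shares rest on 65 to 110 counts per vehicle library and on 31 to 65 per MC903 library. Trdv4 held 94.9% ± 2.02 of delta variable counts in vehicle and 93.7% ± 2.85 in MC903 skin. Tcrg-C1 held 60.2% ± 3.94 of gamma constant counts in vehicle and 62.5% ± 5.97 in MC903 skin. Thus the shares of Trdv4 and Tcrg-C1 differed between groups by less than 1 SD of either group.

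T cell genes as a whole went the other way. Among 17 genes of the T cell receptor complex and alpha-beta T cells, 12 rose and none fell, while 21.3% of all genes tested were higher and 20.2% lower. The median log2 fold change was 0.99 against -0.03 over all genes tested. Trac, the alpha chain constant segment, rose from 1.90 ± 0.24 to 5.98 ± 1.24 CPM (edgeR adjusted p = 0.000111). The beta chain constant segment Trbc2 rose from 10.2 ± 0.57 to 31.7 ± 3.56 CPM, and the coreceptor gene Cd8a rose from 0.22 ± 0.07 to 1.46 ± 0.24 CPM (SD, n = 4). The CD3 chains, which all T cells use, were not alike. Cd3d rose by a log2 fold change of 1.26 ± 0.18, while Cd3e (-0.30 ± 0.14), Cd3g (0.12 ± 0.17) and Cd247 (-0.41 ± 0.22) did not pass (SE). Summed over the list, the level was 158 to 185 CPM in vehicle and 224 to 276 CPM in MC903 skin.

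Ratios within a library do not depend on library size. Trac counts were 0.30 to 0.43 of Tcrg-C1 counts in the vehicle libraries and 1.17 to 1.77 in the MC903 libraries, with no overlap. Tcrg-V5 counts were 0.120 to 0.163 of Cd3e counts in vehicle and 0.0478 to 0.117 in MC903 libraries, again with no overlap. The nearest libraries, vehicle replicate 1 (0.120) and MC903 replicate 3 (0.117), rest on 41 and 31 Tcrg-V5 counts. The receptor segments were chosen from this comparison, so ratios that use them are a description. Trdv4 counts were 0.344 to 0.450 and 0.209 to 0.345 of Cd3e counts, and these ranges touched.

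Genes for surface and signalling proteins used by dendritic epidermal T cells, most of which other lymphocytes also express, mainly rose. Of 19 tested, 13 rose and 1 fell, with a median of 1.14, against 21.3% higher and 20.2% lower among all genes tested. Gzmb, a cytotoxic granule protease, rose from 0.95 ± 0.23 to 21.4 ± 5.94 CPM (log2 fold change 4.47 ± 0.25 SE; edgeR adjusted p = 4.95e-07). Sema4d, a semaphorin, rose from 7.85 ± 0.69 to 26.7 ± 1.55 CPM, and Il2rg, the common cytokine receptor chain, rose from 14.5 ± 2.44 to 47.5 ± 11.2 CPM. Klrk1, the NKG2D receptor, rose from 6.79 ± 0.48 to 13.2 ± 2.51 CPM, and Itgae, the integrin that binds E-cadherin, rose from 7.52 ± 0.78 to 9.89 ± 0.45 CPM. The Itgae call was lost in 9 of 15 alternatives, among them the omission of vehicle replicate 1, 2 or 4 or MC903 replicate 2 or 3. The chemokine receptor gene Ccr4 fell from 9.19 ± 1.89 to 5.52 ± 1.64 CPM (edgeR adjusted p = 0.0237), and it did not pass when vehicle replicate 2 or 3 or MC903 replicate 1, 2 or 4 was left out.

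A list of keratinocyte genes, for ligands and partners of these T cells and for epithelial cytokines, moved in both directions. It had 5 of 11 tested higher and 2 lower (median 0.39), against 21.3% and 20.2% of all genes tested. Tslp, an epithelial cytokine, rose from 16.8 ± 3.57 to 479 ± 208 CPM (edgeR adjusted p = 1.99e-06). Plxnb2, the receptor for Sema4d, rose from 65.4 ± 6.01 to 102 ± 4.83 CPM. Il34, a growth factor for Langerhans cells, fell from 57.5 ± 3.84 to 22.5 ± 5.85 CPM. Of the butyrophilin relatives, 2 of 10 could be tested. Btnl2 rose from 1.17 ± 0.90 to 5.98 ± 1.78 CPM (edgeR adjusted p = 0.00211), and Btnl9 fell from 3.43 ± 1.80 to 1.62 ± 0.67 CPM (edgeR adjusted p = 0.0475), a call lost when vehicle replicate 2 or 4 or MC903 replicate 1, 2 or 3 was left out.

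Markers of neighbouring cell types moved beside the members, and their part in the members' values was not tested. The counts below stand against 21.3% higher and 20.2% lower among all genes tested. Of 10 tested genes known from dermal interleukin 17-producing gamma-delta T cells, 2 fell and none rose (median -0.48), which is near the 20.2% lower among all genes tested, and the summed level was 610 to 719 CPM in vehicle and 334 to 607 CPM in MC903 skin. Zbtb16, a transcription factor gene that skin cells other than T cells also express, fell from 152 ± 39.2 to 52.3 ± 17.2 CPM. Most of the sum came from Maf, at 402 ± 53.7 and 322 ± 116 CPM, which did not pass, and from Zbtb16. Il17a averaged 0.07 CPM in vehicle ears and 0.14 CPM in MC903 ears, below the value of 3 counts. The list for natural killer and innate lymphoid cells had 4 higher and 3 lower of 7 tested, led by Gzma (0.18 ± 0.22 to 4.40 ± 1.91 CPM), Txk and Il1rl1. Its summed level was 869 to 1037 CPM in vehicle and 534 to 709 CPM in MC903 skin, nearly all of it from Rora (585 ± 52.1 to 359 ± 62.0 CPM) and Gata3 (359 ± 31.8 to 265 ± 30.2 CPM), which many skin cells express and which both fell. Of 8 Langerhans cell and antigen-presenting cell genes, 3 rose (H2-Ab1, Csf1r and Spi1) and 1 fell, while Cd207, a marker gene used for Langerhans cells, had a log2 fold change of -0.51 ± 0.20 and did not pass (edgeR adjusted p = 0.059). That list summed to 3631 to 5264 CPM in vehicle and 4800 to 7239 CPM in MC903 skin. Most of the sum was Cd74, at 3523 ± 632 and 4554 ± 933 CPM, which did not pass (edgeR adjusted p = 0.188).

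Keratinocyte markers, the class of cell that makes Skint transcripts, were mixed. The counts here also stand against 21.3% higher and 20.2% lower among all genes tested. Of 9 basal genes 1 rose and 4 fell (median -0.34), with a summed level of 6633 to 9100 CPM in vehicle and 9675 to 11359 CPM in MC903 skin. Krt14 rose from 1939 ± 257 to 7077 ± 828 CPM, Krt15 fell from 3061 ± 912 to 564 ± 217 CPM and Dst fell from 693 ± 50.3 to 320 ± 37.4 CPM. Krt14, the 1 gene that rose, made up most of the MC903 sum, so the higher sum is not read as a rise of the list. Krt5 had a log2 fold change of 0.34 ± 0.16 (SE) and did not pass. Of 10 suprabasal genes 3 rose and 3 fell (median -0.37), with a summed level of 11244 to 12891 CPM in vehicle and 12061 to 15433 CPM in MC903 skin. Flg2, a late differentiation gene, fell from 458 ± 43.3 to 73.2 ± 13.1 CPM, Krt1 rose from 202 ± 50.0 to 1848 ± 362 CPM and Dsc1 rose from 23.5 ± 1.63 to 77.3 ± 11.5 CPM. Krt10 had a log2 fold change of -0.27 ± 0.27 (SE) and did not pass. The largest part of the suprabasal sum was Krtdap, at 5454 ± 627 and 7005 ± 1547 CPM, which did not pass. Of 12 hair follicle and sebaceous genes 2 rose (Krt75 and Gsdma) and 7 fell, Scd3 among them, with a summed level of 4724 to 9513 CPM in vehicle and 2710 to 5582 CPM in MC903 skin. Among all listed genes, only Trdv2-1, which was not tested, was at 0 in every library.

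The 16 other genes within 1 Mb of the gamma locus, which spans chromosome 13 from 19178042 to 19352343, included 8 that could be tested. Among these 8, 1 fell and 1 rose, against 20.2% and 21.3% of all genes tested. Epdr1 fell from 17.7 ± 3.40 to 11.8 ± 2.42 CPM and Stard3nl rose from 33.3 ± 0.97 to 49.3 ± 6.43 CPM (SD, n = 4; edgeR adjusted p = 0.023 and 0.00338). Epdr1 did not pass when vehicle replicate 1 or MC903 replicate 1 or 2 was left out.

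Likeness was measured as the root mean square distance of log2 CPM profiles over the 8 libraries, each centred on its vehicle mean, among 12967 genes outside the lists. The genes nearest to the mean Skint profile were Gpr37 (0.0843), Cyp20a1 (0.0946), Ankrd35 (0.111), Zfhx3 (0.116) and Lmo7 (0.119), against a median distance of 0.712. Among the members, Skint6 was 0.0870 from that mean profile, and Skint5 (1.06) and Skint1 (0.803) were farthest. The genes nearest to the mean receptor profile were Cbs (0.111), Cep112 (0.130), Gdpd2 (0.148), Ezh1 (0.170) and Trim71 (0.171), against a median of 0.679. Genes near a mean profile share its difference between the groups, which the choice of members fixed.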

How the data were processed

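The authors deposited, 1 table for each of 8 libraries, holding read counts for Ensembl genes along with their CPM and RPKM. The deposited CPM and RPKM were used only to check the counts, and all results start from the deposited counts. STAR 2.0.4b, featureCounts 1.4.5, Subread and the build mm10 are named in the submitters' processing notes, per the labels. The annotation release, strand setting and treatment of multiply mapped reads are not given in the sources used here, and per the labels' protocols no step marks strand. Of 40254 identifiers with a symbol, 40158 overlapped their GENCODE M21 position. Trdc and Trdv3 were not matched and are not analysed here.

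Genes were filtered with filterByExpr, scaled by TMM and fitted by treatment group in R 4.3.3 with the quasi-likelihood test of edgeR 4.0.16, with Benjamini-Hochberg adjustment over all 16105 genes and a threshold of 0.05. SE is the size of the log2 fold change divided by the square root of F. The labels name mice but no separate cultures or batches, and p-values measure the spread between these samples. No 2 libraries of a group agreed within sampling noise (chi-square per degree of freedom at least 10.1). The members and lists were chosen with earlier results of these data known. The rule for named genes takes the members, preset T cell, Langerhans and keratinocyte genes, all other Skint and gamma-delta receptor genes, the 3 called genes with the smallest p of each other list, and the 5 genes nearest to each mean profile. Ccr4, Il17a, Maf, Rora, Gata3, Krtdap, Cd74, Bpifa2, Trbc1 (plotted only) and the genes near the loci were named after their values were seen. A gene that the rule names is not reported here.

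Start regions are RefSeq's, 250 bases before to 50 after each start, and all 11 Skint genes had one. Motifs were searched on both strands. On data simulated for this comparison over 16103 genes, the fit called 6 of 50 genes changed by 1.5-fold, 31 of 50 by 2-fold, 48 of 50 by 4-fold and 50 of 50 by 8-fold, and 4.26% of its calls were unchanged genes. Only these few genes were changed in the simulation, whereas 41.5% of genes passed in the real comparison. Its rates therefore do not carry over to the real comparison. Alternatives were DESeq2 1.42.0, limma-voom (limma 3.58.1), other scalings, no filter and a stricter filter (1 CPM in 4 libraries), the replicate number as a block, and leaving out each library in turn.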

Additional observations from a re-analysis of the deposited data

Results flagged for a closer look

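In 142 groups of 4 values, 8 had a sample far from the other 3, and chance gives about 1 in 20. Krt10 was at 967 CPM in MC903 replicate 1, below the other MC903 libraries. The Skint5 share of Skint counts was 4.18% in the same library, against 4.47% to 4.49% in the others. Krt1 was at 277 CPM in vehicle replicate 2, the library rich in Bpifa2. Krt15 was at 884 CPM in MC903 replicate 4. Zbtb16 was at 209.7 CPM in vehicle replicate 3. Among the receptor genes, Tcrg-C4 was at 1.72 CPM in MC903 replicate 3, and Tcrg-V2 was at 1.59 CPM in vehicle replicate 1. The Tcrg-C1 share of gamma constant counts was 66.0% in vehicle replicate 4.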

How the results depend on the processing

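The 6 members called lower were called in 15 of 15 alternatives, Skint10 in 2, Skint1 in 1, and Skint3 and Tcrg-C1 in 0. The alternatives use the same libraries from which the members were chosen, so these counts describe the processing only. With single libraries left out, the log2 fold change ran from -0.24 to 0.16 for Skint3 and from -0.059 to 0.41 for Skint11. Skint3 turned positive when vehicle replicate 3 (0.11), MC903 replicate 1 (0.16) or MC903 replicate 3 (0.04) was removed, and Skint11 turned negative when MC903 replicate 2 (-0.059) was. The replicate numbers are not stated to pair mice, and deviations of same-numbered libraries correlated at 0.06, -0.14, -0.12 and -0.20. With the replicate number as a block, calls over all genes went from 6682 to 5705, Skint10 joined the 6 members called lower (log2 fold change -0.56), and 2 genes of the dendritic epidermal T cell list, 2 of the Langerhans list and 2 near the gamma locus were lower. Leaving out each library in turn gave 0 to 1 members called higher, 0 to 1 other Skint genes higher, 0 to 2 butyrophilin relatives lower, 0 to 1 other gamma-delta segments lower and 0 to 1 dendritic epidermal T cell genes lower. It gave 3 to 5 keratinocyte partners higher, 0 to 1 dermal gamma-delta genes higher, 0 to 1 T cell genes lower, 1 to 3 natural killer genes lower and 1 to 2 Langerhans genes lower. Near the Skint cluster 1 to 2 genes were higher, and near the gamma locus 0 to 1 were lower and 1 to 2 higher. DESeq2 called 2 butyrophilin relatives, 1 dermal gamma-delta gene and 2 basal genes higher, and no filter called 2 butyrophilin relatives higher. With limma-voom 0 butyrophilin relatives were lower. Upper quartile scaling called 1 T cell gene, 2 Langerhans genes and 2 genes near the gamma locus lower. Library sizes alone left 1 gene higher near the Skint cluster, and 2 lower and 0 higher near the gamma locus. Causes were not tested. Tcrg-V5 and the other low segments are limited by depth, where 3 counts are worth 0.178 to 0.244 CPM on library totals without TMM adjustment.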

Other observations

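The J segments, which join the variable and constant parts of the receptor, also had few counts. Trdj2 had 14, 11, 17 and 10 counts in the vehicle libraries and 9, 3, 7 and 2 in the MC903 libraries. The segment annotated as Trgj1, which lies before Tcrg-C1, had 7, 5, 17 and 7 counts in vehicle and 6, 3, 4 and 1 in MC903 libraries. Trdj1 summed to 18 counts in vehicle and 13 in MC903 libraries. Counts this low give wide counting error, and no test was made.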
